A study of Mus musculus with 18 samples.

Results

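Collagens are the structural proteins of the extracellular matrix, and the genes described here are the 42 protein-coding genes on mouse autosomes whose symbol has the form Col, type number, a, chain number. They were taken by symbol from 20558 autosomal protein-coding genes of the RefSeq annotation of GRCm38 and cover 27 collagen types on 14 chromosomes. Following the chains' known assemblies, 9 genes are fibrillar (types 1, 2, 3, 5 and 11), 4 encode basement-membrane type 4 and 29 belong to the remaining types. Col4a5 and Col4a6 on chromosome X fall outside the rule. Accessible chromatin was measured with ATAC-seq, which uses a transposase to tag open DNA with adapters, in 18 libraries of a mouse embryonic stem cell line called dTKO, 3 at each of 0, 3, 6, 12, 24 and 48 h after addition of 100 µg/ml auxin together with 0.5 µM dTAG13. All groups share the genotype Suv39h1fl/fl, Suv39h2-/-, Setdb1fl/fl, which concerns 3 histone H3 lysine 9 methyltransferases, and the 0 h samples carry the same treatment label as the later ones. The labels do not say which protein each compound acts on, nor whether the 3 replicates came from separate cultures, and all samples are of 1 line.

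The values are 166066 peaks merged over all libraries, given as positions without a library, read count, height or score. Depth is therefore unknown, spread between replicates could not be given, times could not be compared, and no test was made. A peak shows that chromatin was called open somewhere in the pooled libraries and does not measure expression. The labelled cell type was looked up in marker genes, of which 10 of 10 genes marking pluripotent stem cells had a peak within 500 bp of an annotated end, as did 7 of 10 fibroblast, 5 of 10 parietal and visceral endoderm and 5 of 6 cartilage markers. Since 72.8% of all autosomal protein-coding genes had one, such a peak does not mark a cell type, and these counts are no strong check of the label.

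A collagen chain carries long runs of Gly-X-Y triplets, and 3 chains wind into a triple helix in the endoplasmic reticulum, aided by prolyl and lysyl hydroxylases and the chaperone Serpinh1 (Hsp47). Fibrillar procollagens are trimmed outside the cell and packed into the fibrils of skin, bone, tendon and cartilage, whereas type 4 chains form the sheet of basement membranes, and other types decorate fibrils, span membranes or build finer networks. Most collagens are products of mesenchyme, cartilage or epithelia, while type 4 is made early in the embryo by endoderm. Stem cells of the kind used here are grown on gelatin, which is denatured collagen.

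The RefSeq promoter table (GRCm38.p6) held 36 start sites for 33 of the 42 genes and gave their strand. Col1a1, Col2a1, Col4a3, Col5a2, Col9a3, Col12a1, Col14a1, Col22a1 and Col26a1 are not in it. The 250 bases before the start site are shown for 4 genes with an open start site and 3 without, because the density of CpG dinucleotides differed between such sites (capitals mark every CpG, sequences run 5′ to 3′ and end at the base before the start site). Col8a2 (chr4:126286544-126286793, plus strand), Col1a2 (chr6:4505368-4505617, plus), Col7a1 (chr9:108953336-108953585, plus) and Col9a2 (chr4:121039316-121039565, plus) had a peak over the start site, and Col3a1 (chr1:45311288-45311537, plus), Col17a1 (chr19:47692043-47692292, minus) and Col6a1 (chr10:76726045-76726294, minus) had none within 500 bp.
Col8a2: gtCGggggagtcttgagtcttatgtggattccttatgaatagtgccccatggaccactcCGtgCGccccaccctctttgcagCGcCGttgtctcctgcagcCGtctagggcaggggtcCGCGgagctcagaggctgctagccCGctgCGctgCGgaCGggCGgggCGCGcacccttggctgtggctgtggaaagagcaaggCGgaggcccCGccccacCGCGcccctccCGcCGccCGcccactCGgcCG
Col1a2: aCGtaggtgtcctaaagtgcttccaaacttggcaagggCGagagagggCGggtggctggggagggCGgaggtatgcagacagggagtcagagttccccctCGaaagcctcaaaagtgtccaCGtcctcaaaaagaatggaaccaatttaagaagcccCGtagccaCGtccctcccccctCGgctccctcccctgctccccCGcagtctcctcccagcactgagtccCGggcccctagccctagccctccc
Col7a1: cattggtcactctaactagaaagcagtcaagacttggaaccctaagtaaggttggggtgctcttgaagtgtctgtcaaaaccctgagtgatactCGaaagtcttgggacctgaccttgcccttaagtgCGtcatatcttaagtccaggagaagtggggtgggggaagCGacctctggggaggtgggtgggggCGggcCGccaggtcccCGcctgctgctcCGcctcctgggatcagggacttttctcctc
Col9a2: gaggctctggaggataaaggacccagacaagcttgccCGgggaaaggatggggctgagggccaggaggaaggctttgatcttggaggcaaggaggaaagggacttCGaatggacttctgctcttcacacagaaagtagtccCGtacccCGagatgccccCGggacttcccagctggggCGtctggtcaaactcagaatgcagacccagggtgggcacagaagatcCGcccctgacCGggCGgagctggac
Col3a1: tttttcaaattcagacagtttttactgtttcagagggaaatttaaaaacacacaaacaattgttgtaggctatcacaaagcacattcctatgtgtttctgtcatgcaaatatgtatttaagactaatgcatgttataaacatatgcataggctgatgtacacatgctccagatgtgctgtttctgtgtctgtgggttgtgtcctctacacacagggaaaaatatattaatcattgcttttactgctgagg
Col17a1: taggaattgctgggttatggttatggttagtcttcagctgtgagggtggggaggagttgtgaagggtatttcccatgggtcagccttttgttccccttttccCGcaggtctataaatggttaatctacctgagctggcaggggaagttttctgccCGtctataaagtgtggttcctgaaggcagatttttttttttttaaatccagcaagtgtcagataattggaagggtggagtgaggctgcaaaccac
Col6a1: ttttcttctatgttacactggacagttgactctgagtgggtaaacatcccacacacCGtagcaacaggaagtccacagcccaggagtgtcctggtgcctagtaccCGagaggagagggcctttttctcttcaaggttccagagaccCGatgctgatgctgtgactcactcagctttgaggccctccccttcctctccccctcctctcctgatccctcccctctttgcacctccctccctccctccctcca

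These stretches held 24, 11, 7 and 9 CpG in Col8a2, Col1a2, Col7a1 and Col9a2 and 0, 2 and 3 in Col3a1, Col17a1 and Col6a1. Peaks covered all 250 bases in Col8a2, Col1a2 and Col7a1, 133 of them in Col9a2, and 0 in the other 3. These genes are chosen examples, and CpG counts of open and other sites overlapped. Between 250 bases before and 50 after the start site, the open Col20a1 site held 1 CpG. The Col10a1 site, without a peak, held 6. The Col10a1 start site, which lies inside the gene Nt5dc1, had its nearest peak 17284 bp away, and 30 bases around its TATA box (capitals, chr10:34389937-34389966, plus strand, first letter of the box 32 bases before the start site) read as follows.
Col10a1: ggaagaaaacagTATAAAtactccagggca

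Of the 42 collagen genes, 33 were open at an annotated end, meaning a peak within 500 bp of it (78.6%, 95% Wilson interval 64.1 to 88.3, counting error only), where 72.8% of autosomal protein-coding genes did. Collagen genes are long, with a median of 110 kb against 17.6 kb, and among the 8603 genes of 20 to 200 kb the share was 82.4%, against 25 of 32 collagen genes of that length (78.1%). The family's share thus lay above 1 background and below the other. In 28 of the 42 genes the peak lay over the annotated end itself, as in 13341 of all 20558 genes. Among genes of 20 to 200 kb this held for 23 of 32 collagen genes and for 6416 of all 8603. Both ends had a peak in 6 genes (14.3%), where 18.9% of all genes and 17.9% of genes of 20 to 200 kb did.

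Where the strand is known, the open end was the 5′ end in every collagen gene that had one. A peak lay within 500 bp of the 5′ end in 24 of 33 genes (72.7%, background 68.4%) and within 500 bp of the 3′ end in 6 of 33 (18.2%, background 22.5%), and those 6 were open at both ends. Counting any listed start site in place of the outer end gave 25 of 33 (75.8%, background 72.4%), and Col6a5 was the added gene. The background share with a peak directly over a start site, a stricter measure than the 500 bp behind the 75.8%, was 69.4%. The 9 genes without strand each had a peak at an end, but which end is the 5′ one was not determined.

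**Figure D1:**
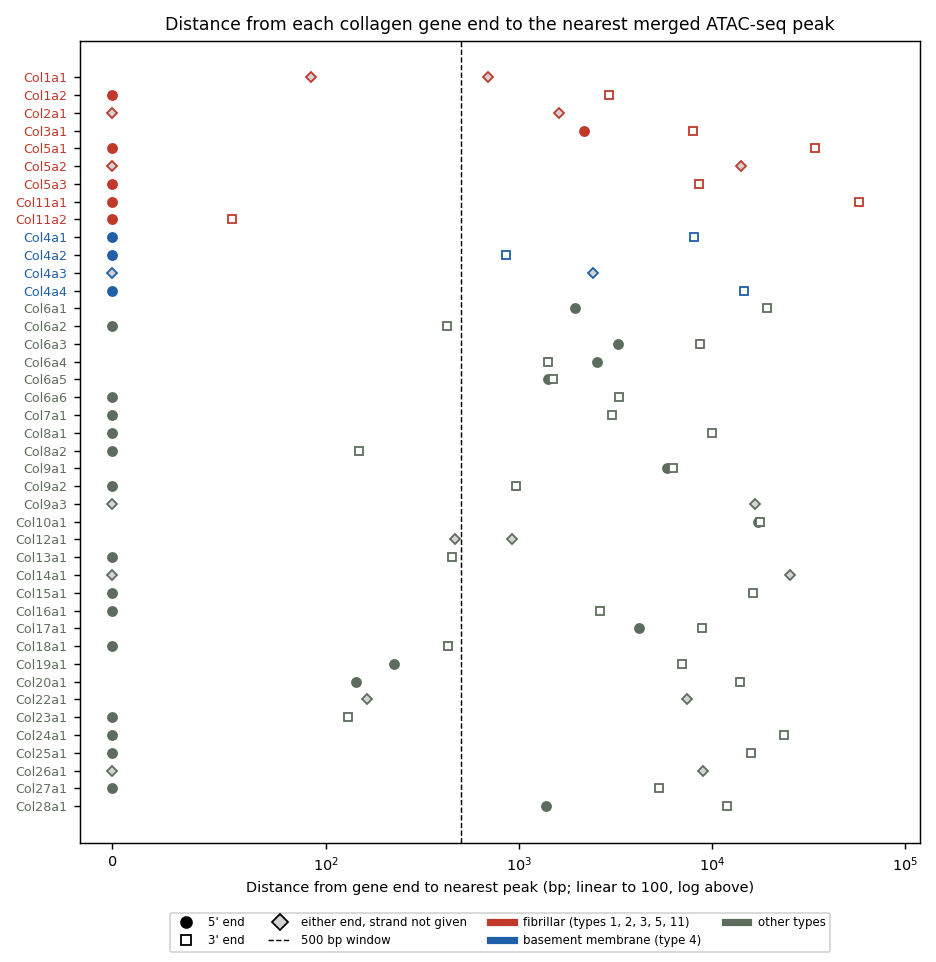
Distance in bp from each annotated end to the nearest merged peak for the 42 collagen genes, on an axis that is linear up to 100 bp and logarithmic above, with circles for 5′ ends, squares for 3′ ends, diamonds for ends of genes without strand and a dashed line at 500 bp. Most circles sit at 0, while the 5′ ends of Col3a1, Col6a1, Col6a3, Col6a4, Col6a5, Col9a1, Col10a1, Col17a1 and Col28a1 lie 1369 to 17284 bp from a peak.

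Among the fibrillar collagens, 8 of 9 genes had a peak at an end (88.9%, interval 56.5 to 98.0, against 72.8%). The type 1 genes encode the main chains of skin and bone. Col1a1 (chromosome 11, 94936224 to 94953042) had a peak of 834 bp at its higher-coordinate end and 1 of 1131 bp that began 686 bp inside its lower end, with 4 peaks in 16.8 kb. Col1a2 (chromosome 6, 4505618 to 4541543) had a single peak, of 1467 bp over the 5′ end, and the next 34.9 kb of the gene held none. The partner chains of type 1 thus stood at 23.8 and 2.78 peak midpoints per 100 kb of gene.

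Col3a1 (chromosome 1, 45311538 to 45349706), whose chain accompanies type 1 in skin and vessels, was the fibrillar gene without a peak at an end. The nearest peaks lay 2174 bp from its 5′ end and 7944 bp from its 3′ end. Its body held 2 narrow peaks, of 494 and 309 bp, with midpoints 6.34% and 12.2% of the way from the 5′ end. Col5a2, its neighbour on chromosome 1 (45374331 to 45503282) and a chain of the type 5 collagen that helps to start fibrils, had a peak of 1422 bp over its higher end.

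The other type 5 genes were open at their 5′ ends. Col5a1 (chromosome 2, 27886381 to 28039510) had a peak of 1921 bp there and 7 peaks in all, of which the other 6 were 223 to 512 bp wide. Col5a3 (chromosome 9, 20770050 to 20815117) had a peak of 1008 bp over the 5′ end. The 3 type 5 genes held 4.57, 4.65 and 13.3 midpoints per 100 kb in Col5a1, Col5a2 and Col5a3.

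Cartilage fibrils are built from types 2 and 11. Col2a1 (chromosome 15, 97975602 to 98004724), the main chain of cartilage, had a peak of 2036 bp over its higher end and 5 peaks in 29.1 kb (17.2 per 100 kb). Col11a1 (chromosome 3, 114030479 to 114220756) had peaks of 1304 and 672 bp with midpoints 0.018 and 1.76 kb from the 5′ end and then none over 188 kb, and its 3′ end lay 57582 bp from the nearest peak. Col11a2 (chromosome 17, 34038919 to 34066684) had a peak of 1051 bp over the 5′ end, which also lies within 500 bp of an end of Rxrb, the gene of a nuclear receptor, so the peak cannot be assigned to either gene. A smaller peak of 384 bp overlapped its 3′ window.

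All 4 autosomal type 4 genes had a peak over an end, where 13341 of all 20558 genes did. The 4 genes rest on 2 peaks because they lie in pairs that overlap at their adjoining ends. By strand, Col4a1 and Col4a2 lie head to head, while the strand of Col4a3 was not given. Col4a1 and Col4a2 (chromosome 8, 11198423 to 11312889 and 11312805 to 11449287), whose chains form the common network of basement membranes, share a peak of 2388 bp at 11311709 to 11314096. Col4a3 and Col4a4 (chromosome 1, 82586921 to 82722059 and 82448419 to 82587034), whose chains are known from the glomerulus of the kidney, share 1 of 1284 bp at 82586347 to 82587630. The bodies of the pairs stood apart. Col4a1 and Col4a2 held 10 and 16 midpoints (8.74 and 11.7 per 100 kb), and Col4a4 and Col4a3 held 4 and 3 (2.89 and 2.22), in genes of 114 to 139 kb. The peaks of Col4a1 and Col4a2 were spread along both genes, with longest peak-free stretches of 17.2 and 23.6 kb, where those of Col4a3 and Col4a4 were 60.9 and 51.7 kb. The X-linked Col4a5 and Col4a6, which are not members, also had a peak over 1 end each and 0.935 and 0.972 midpoints per 100 kb.

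In the remaining types, 21 of 29 genes had an open end (72.4%, interval 54.3 to 85.3), close to the 72.8% of all genes. Type 6, which forms beaded filaments around cells, held 4 of the 8 genes without one, and 2 of its 6 genes had one. This count rests on the window, since at 2000 bp Col6a1, Col6a4 and Col6a5 were added and 5 of 6 were open (83.3%, background 81.3%). Col6a2 (chromosome 10, 76595756 to 76623630) had a peak of 801 bp over the 5′ end and 1 of 503 bp near the 3′ end, and Col6a6 (chromosome 9, 105689417 to 105828246) had 1 of 850 bp over its 5′ end. Col6a1, also on chromosome 10 (76708792 to 76726044), had no peak anywhere in its 17.3 kb, with the nearest 1950 bp beyond the 5′ end. Col6a3 (chromosome 1, 90766860 to 90844001) had its nearest peak 3247 bp from the 5′ end, inside the gene. Col6a4 and Col6a5, on chromosome 9 like Col6a6, had their nearest peaks 1411 and 1405 bp from an end. In Col6a5 a peak of 570 bp covers the start site listed within the annotated gene, so the gene counts as closed by its outer ends and as open by its start site. Col6a1, Col6a2 and Col6a3 encode the chains of the classic type 6 trimer, and these 3 stood at 0, 2 and 4 peak midpoints.

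Fibril-associated collagens with interrupted helices (types 9, 12, 14, 16, 19, 20 and 22), which coat the surface of fibrils, were open at an end in 8 of 9 genes (88.9%, interval 56.5 to 98.0, which contains the 72.8% of all genes). The exception was Col9a1 (chromosome 1, 24177589 to 24252738), with its nearest peaks 5849 and 6269 bp from its ends and 1 peak of 637 bp in 75.2 kb. The genes of its partner chains in cartilage, Col9a2 and Col9a3, had peaks of 898 and 1352 bp over an end. Col9a2 held 4 peaks in 15.8 kb and Col9a3 1 peak midpoint in 24.1 kb. Col9a3 overlaps the gene Tcfl5. Col14a1 had 2 peaks at its lower end, of 942 and 1753 bp, and Col16a1 1 of 969 bp over the 5′ end, where the lncRNA gene Gm12963 also has an end. Peaks at Col12a1, Col19a1, Col20a1 and Col22a1 lay 462, 224, 143 and 162 bp from the end without reaching it, and that at Col22a1 is also within 500 bp of an end of the pseudogene Gm2999. The Col12a1 peak, at its lower end, was 546 bp wide. A wider peak of 2460 bp lay 918 bp inside the higher end of Col12a1, outside the 500 bp window.

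Of the transmembrane collagen genes, 3 of 4 had an open end (75%, near the 72.8% of all genes). Col13a1, Col23a1 and Col25a1 had peaks of 1837, 1471 and 1556 bp over the 5′ end. Col13a1 and Col23a1 were also open at the 3′ end, and the 3′ peak of Col23a1 lies within 500 bp of an end of Phykpl. Col17a1 (chromosome 19, 47646341 to 47692042), a chain of the hemidesmosomes that anchor skin epithelium, had its nearest peak 4186 bp beyond the 5′ end, although its body held 5 peaks. Col25a1 (chromosome 3, 130180358 to 130599884), known from neurons and motor innervation of muscle, was the longest of the 42 genes at 419.5 kb. After its 5′ peak it held no peak for 312 kb, and 3 of its 5 peaks had midpoints 94.1 to 95.2% of the way along.

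Both multiplexin genes, which encode proteoglycan cores of vessel and epithelial basement membranes, were open at the 5′ end. The peak at Col18a1 (chromosome 10, 77052178 to 77166530), whose chain carries endostatin, was 3032 bp wide, the widest of the 39 distinct peaks at collagen gene ends. A further peak of 1325 bp covered the second start site listed for Col18a1, and the body held 21 midpoints. Its 3′ peak of 1453 bp also lies within 500 bp of an end of Slc19a1. Col15a1 had a peak of 1485 bp over the 5′ end and 6 midpoints in 106 kb.

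Among the short-chain collagens, Col8a1 and Col8a2, which form the network beneath the corneal endothelium and in vessel walls, had peaks of 1294 and 1125 bp over the 5′ end. Col10a1 (chromosome 10, 34389981 to 34397085), the marker of hypertrophic cartilage, had none in its 7.11 kb, and its nearest peaks were 17284 and 17775 bp from its ends, the largest distance among the 42 genes where the nearer end of each is counted. Col24a1 and Col27a1, fibrillar chains outside the 5 classical types, had 5′ peaks of 1719 and 994 bp. Col7a1, which forms the anchoring fibrils of skin, had a single peak of 1376 bp over its 5′ end. Col26a1 had a peak of 2185 bp over its higher end, and the nearest peak to Col28a1 lay 1369 bp from its 5′ end. At the 500 bp limit, Col12a1 at 462 bp was the last gene counted as open and Col28a1 the first counted as closed.

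**Figure D2:**
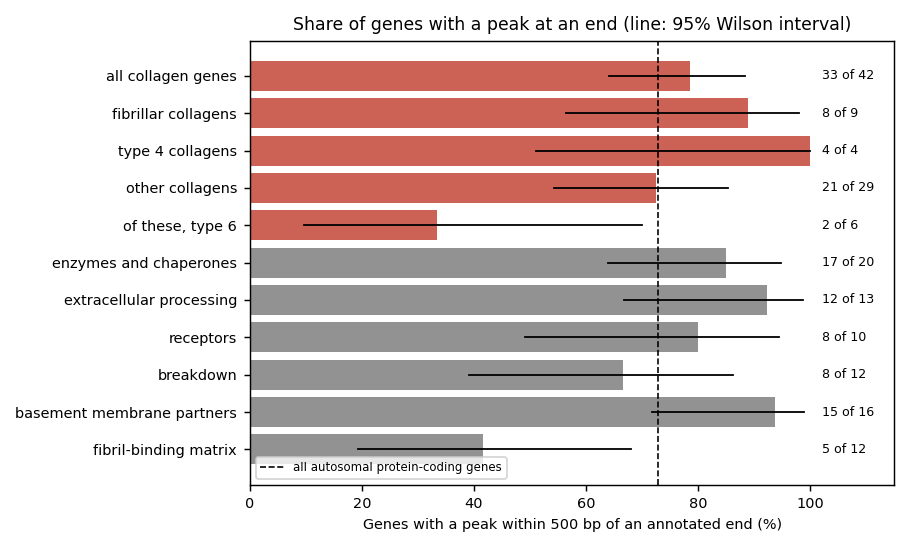
Percentage of genes with a peak within 500 bp of an annotated end in all 42 collagen genes, their classes and 6 lists of related genes, with lines for 95% Wilson intervals, counts at the right and a dashed line at the 72.8% of autosomal protein-coding genes. Type 4 stands at 4 of 4 and type 6 at 2 of 6, and the interval of type 6 reaches from 9.68% to 70.0%, and with a window of 2000 bp type 6 would stand at 5 of 6.

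Peaks at collagen gene ends were wide and those within the genes narrow. The 39 distinct end peaks had a median width of 1294 bp (292 to 3032 bp), beside 1200 bp for peaks at ends of autosomal protein-coding genes. The other 242 peaks that overlapped collagen genes had a median of 488 bp. Over all autosomal peaks the median was 579 bp, but that set includes peaks at gene ends and outside genes. Non-end peaks within other genes were not measured, so these widths do not show whether collagen body peaks are unusually narrow. Peak width was set by the authors' peak calling and merging, so it is a description of the merged list.

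The median collagen gene body held 5.05 peak midpoints per 100 kb (range 0 to 25.4), where autosomal protein-coding genes of at least 1 kb had 10.9 and genes of 20 to 200 kb had 9.95. The 32 collagen genes of 20 to 200 kb had a median of 5.21, and 23 of them (71.9%) lay below the median of that range, where 50% do by definition. Within that range the collagen genes were still longer, with a median of 106 kb against 44.1 kb, and the background density was lower in longer genes. In narrower ranges chosen after seeing the data, the medians were 8.77 in 11 collagen genes against 11.4 in all genes at 20 to 50 kb, 5.19 in 3 against 9.37 at 50 to 100 kb, and 4.68 in 18 against 7.67 at 100 to 200 kb. The collagen median was the lower one in each range, and the gap was smaller than over all lengths. Fibrillar, type 4 and other collagens had medians of 5.24, 5.81 and 4.91, and their ranges of 1.05 to 23.8, 2.22 to 11.7 and 0 to 25.4 overlapped widely. At least 1 midpoint lay in 40 of the 42 bodies, where 77.7% of all genes and 95.9% of genes of 20 to 200 kb held one, and the exceptions were Col6a1 and Col10a1.

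The surroundings of collagen genes were also somewhat poor in peaks. In the 100 kb on either side, the median was 8.25 midpoints per 100 kb, beside 10.5 for all autosomal protein-coding genes and for those of 20 to 200 kb. The body was sparser than its own surroundings in 29 of 42 genes (69.0%), where 47.4% of all genes were. At 20 to 200 kb this held for 23 of 32 collagen genes (71.9%) and 52% of all genes. Length was not matched further, and background body density was lower in longer genes. For neighbours such as Col4a1 and Col4a2, or Col3a1 and Col5a2, the surroundings take in part or all of the other gene. Col11a1 lay in the emptiest setting, with 1.5 midpoints per 100 kb around it, and Col1a1 and Col11a2 in the densest, with 19.5 each.

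A few collagen genes of 20 to 200 kb went the other way. Col8a2 had 7 midpoints in 27.5 kb (25.4 per 100 kb, higher than 96.9% of genes of 20 to 200 kb), Col18a1 21 in 114 kb (18.4, higher than 84.1%), Col2a1 17.2 (80.7%) and Col26a1 22 in 142 kb (15.5, 75.7%). At the low end, Col11a1 stood at 1.05, higher than 4.37% of genes of 20 to 200 kb, and Col25a1, Col9a1, Col6a4, Col4a3 and Col8a1 at 1.19, 1.33, 1.88, 2.22 and 2.30, above Col6a1 and Col10a1 at 0. Genes of one type therefore spanned much of the range, as with Col8a1 and Col8a2 or Col11a1 and Col11a2, the latter at 10.8.

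**Figure D3:**
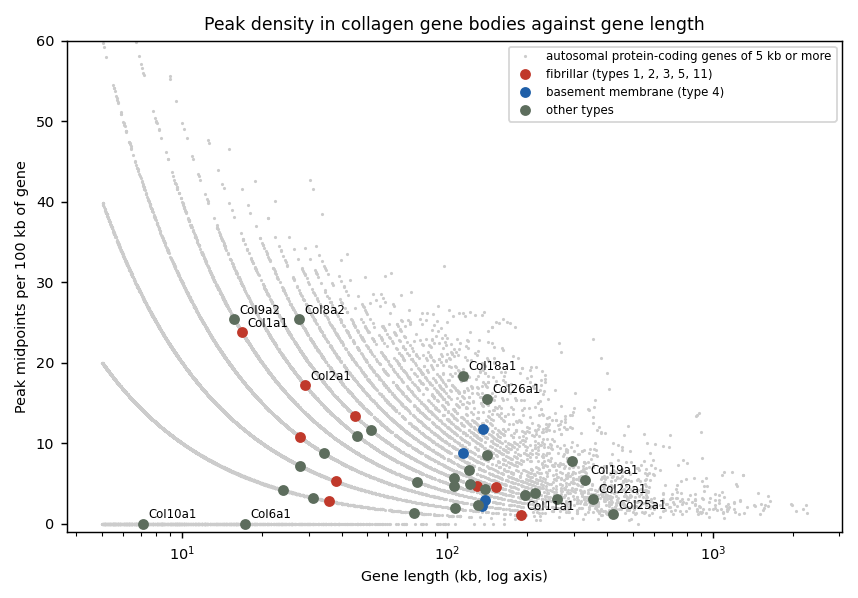
Peak midpoints per 100 kb of gene against gene length on a logarithmic axis, with grey points for autosomal protein-coding genes of 5 kb or more (those above 60 per 100 kb are off the axis) and coloured points for the 42 collagen genes. Curved rows are genes with the same whole number of peaks. Col8a2 and Col9a2 stand at 25.4, Col6a1 and Col10a1 at 0.

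Within the 33 genes with strand, 208 peak midpoints fell fairly evenly from the 5′ to the 3′ end. Cutting each gene into 4 equal parts from the 5′ end gave 27.4%, 25.0%, 19.7% and 27.9% of them, beside 29.6%, 23.2%, 22.9% and 24.2% in 6862 genes of 20 to 200 kb with strand. The collagen genes here are of every length, unlike the background, and the shares were not tested against each other. A Wilson interval, such as 21.8 to 33.8% for the part nearest the 5′ end, treats peaks as independent. Peaks of 1 gene are not, and Col18a1, Col19a1 and Col23a1 held 21, 18 and 23 of the 208 midpoints. Single genes departed from an even spread. In Col1a2 and Col7a1 the lone peak lay at the 5′ end, the Col11a1 midpoints lay within 0.925% of the gene from it, and the lone Col9a1 peak lay 91.2% of the way along. Col19a1 and Col23a1 held 18 and 23 peaks spread over 330.2 and 294 kb.

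**Figure D4:**
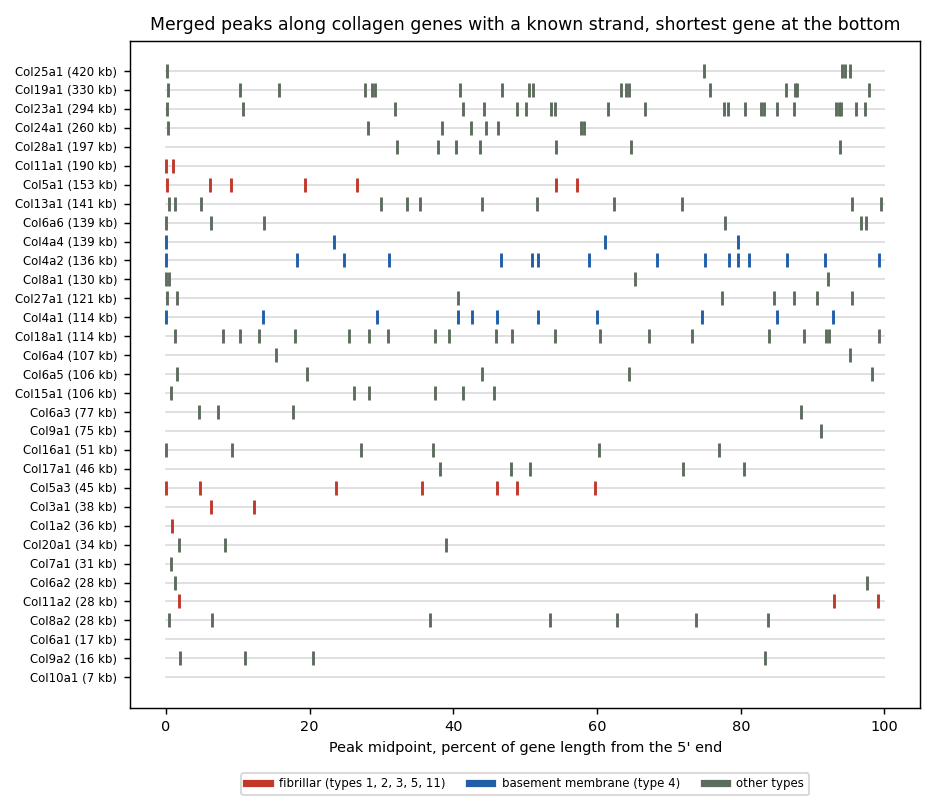
Midpoints of merged peaks (ticks) in the 33 collagen genes with strand, as percent of gene length from the 5′ end, with the shortest gene at the bottom and colours for the classes. Ticks cluster at the 5′ end in genes such as Col11a1, Col1a2 and Col7a1, whereas Col18a1 and Col4a2 carry them throughout.

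The composition of the promoter window (250 bases before to 50 after the start site) went with the presence of a peak, as a description across genes without a test. The CpG ratio is the number of CpG times the window length divided by the product of C and G counts. A peak lay within 500 bp of 27 of the 36 collagen start sites. Their median ratio was 0.543 (0.0536 to 0.902), and that of the 9 sites without a peak was 0.134 (0 to 0.408). Over all 20085 autosomal protein-coding start sites the medians were 0.741 with a peak and 0.159 without.

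The ratio reached 0.6 in 11 of 36 (30.6%), where 48.9% of all start sites did, a difference that was not tested. Those 11, in Col4a1, Col4a2, Col5a1, Col5a3, Col8a2, Col11a2, Col13a1, Col19a1, Col23a1, Col25a1 and Col27a1, each had a peak, where 99.2% of such sites do. Of the 25 sites below 0.6, 16 had a peak (64.0%, background 44.5%). Open sites of low ratio included Col20a1 (0.0536, nearest peak 47 bp away), the second Col18a1 site (0.227), Col24a1 (0.270), Col11a1 (0.332) and Col9a2 (0.352), all but Col20a1 under a peak. The highest ratio without a peak was that of Col10a1.

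**Figure D5:**
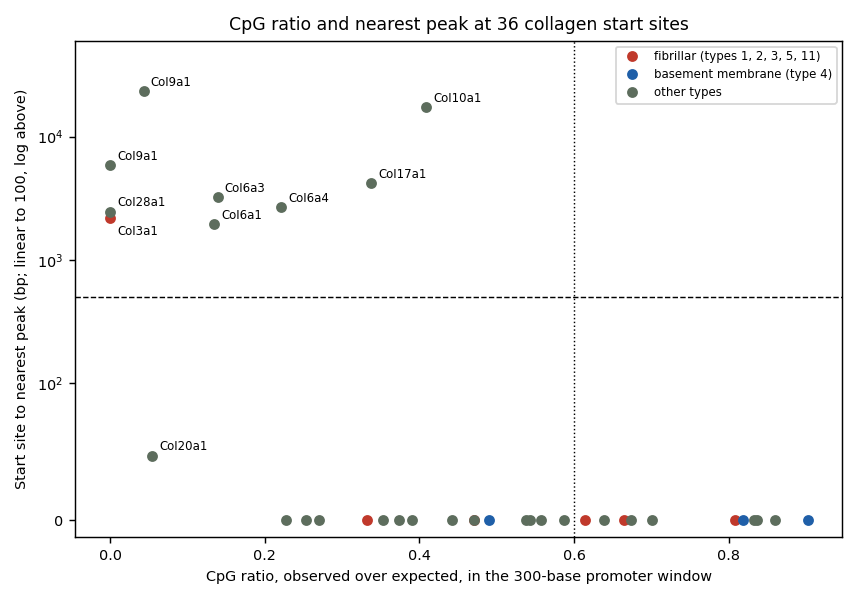
CpG ratio of the 300-base promoter window against the distance from the start site to the nearest peak in bp (linear to 100, logarithmic above) for 36 collagen start sites, with lines at a ratio of 0.6 and at 500 bp. All 11 sites to the right of 0.6 sit at 0 bp, and the 9 sites above 500 bp have ratios of at most 0.408.

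Short motifs of 4 kinds were searched on both strands of the same window, and a match is a match of letters. A TATA box (TATAAA) was found at 5 of the 36 collagen start sites (13.9%, all start sites 12.7%). Of these, 3 lacked a peak, namely Col3a1, Col10a1 and Col17a1, and the others were Col11a2 and Col13a1. The box was present at 7.41% of open collagen sites and 33.3% of collagen sites without a peak. Over all start sites these shares were 6.90% and 27.1%. The box begins 117 bases before the Col3a1 start site and 140 and 91 bases before that of Col17a1. A CCAAT box (CCAAT) was found at 12 (33.3%, all 38.1%), a GC box (GGGCGG, which contains a CpG) at 21 (58.3%, all 47%) and a CTC box (CCCTNCCCC) at 5 (13.9%, all 10.5%). The GC box was present at 20 of 27 open collagen sites (74.1%) and at 1 of 9 others, that of Col6a4, beside 63.3% and 6.71% over all start sites. In the printed Col1a2 stretch, GC boxes begin 205 and 188, a CCAAT box 109 and a CTC box 82 bases before the start site. GC boxes of Col9a2 begin 26 and 14 bases before it.

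Genes that make, trim, bind and degrade collagen were grouped in 6 lists. The share with a peak at an end is set beside the 72.8% of autosomal protein-coding genes, and no difference from it was tested. The 95% Wilson intervals give counting error only. The lists hold related genes and were chosen with earlier results known, so the place of 72.8% inside or outside an interval is no test. Enzymes and chaperones of the endoplasmic reticulum had a peak in 17 of 20 cases (85.0%, interval 64.0 to 94.8), among them Colgalt2, Crtap, Fkbp10 and Mia3, whose product helps to export procollagen. Colgalt1, Fkbp14 and Plod2, a lysyl hydroxylase, had none, with nearest peaks 0.596, 1.565 and 2.04 kb from an end. Genes of extracellular trimming and crosslinking had one in 12 of 13 cases (92.3%, interval 66.7 to 98.6), among them Adamts2, Adamts3 and Adamts14, which remove the amino-terminal propeptide, and Bmp1, which removes the carboxy-terminal one. Tll2 was the exception at 3.44 kb.

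Receptor genes had a peak in 8 of 10 cases (80%, interval 49.0 to 94.3, near the 72.8% of all genes), among them Ddr1 and Ddr2, tyrosine kinases that bind collagen, and the integrin genes Itga1 and Itga10. Gp6 of platelets and Lair1 of immune cells had none, with nearest peaks 7.05 and 1.96 kb away. Genes of breakdown and its inhibitors had one in 8 of 12 cases (66.7%, interval 39.1 to 86.2, below that share), with Mmp14, Mmp1b, Mmp2 and Mmp9 among them. The collagenase genes Mmp13, Mmp1a and Mmp8 and the osteoclast protease gene Ctsk had none, at 6.22, 7.25, 3.62 and 1.11 kb.

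The partners of type 4 in basement membranes had a peak in 15 of 16 cases (93.8%, interval 71.7 to 98.9), among them Agrn, Hspg2 (perlecan), Lama1 and Lama2, and Lamb3 of epithelial laminin was the exception at 6.98 kb. Proteins that bind fibrils had one in 5 of 12 cases (41.7%, interval 19.3 to 68.0, background 72.8%), the lowest share of the 6 lists at 500 bp. With a window of 2000 bp it was 8 of 12 (66.7%, background 81.3%). Dcn (decorin, a leucine-rich proteoglycan), Fn1 (fibronectin), Thbs1 and Tnc were open. Bgn, Fmod, Kera and Lum, which encode further leucine-rich proteoglycans, had their nearest peaks at 2.11, 0.598, 3.58 and 2.03 kb. In body density these lists had medians of 15.7, 8.67, 8.66, 10.0, 12.8 and 7.09 midpoints per 100 kb, in the order given, each above the 5.05 of the collagen genes. Gene length was not matched here. The collagen genes are long, with a median of 110 kb, and background density was lower in longer genes. Of the genes listed, Timp1 and Bgn lie on chromosome X, outside the autosomal background.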

How the data were processed

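ATAC-seq of 18 mouse embryonic stem cell libraries (6 times, 3 per time) was deposited by the authors as 1 list of merged peak positions. Tools listed in the submitters' processing notes are MACS2 2.2.7.1, Bowtie2 2.4.2 and Trimmomatic 0.36, and the builds listed there are GRCm38 and mm10. Their roles are not stated. Merging, peak threshold, duplicate treatment and insertion offset are not given in the sources used here, and each could move a peak edge or decide whether a peak exists. No column belongs to a library, so comparisons with 0 h were not run.

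Genes came from a RefSeq table of GRCm38.p6. Within each chromosome, the 363 rows in all that follow a drop in start position were taken as scaffold or patch genes and left out. Strand came from the RefSeq promoter table. A gene end counted as open where a peak overlapped 500 bp either side by at least 1 bp. Density counts the midpoints of peaks that fall in a gene, scaled to 100 kb, for genes of at least 1 kb. The class of each type was assigned from textbook structure. Members and lists were chosen with earlier results of these data known. All members are accounted for, and of other lists up to 4 genes with and 4 without a peak are named in alphabetical order. Scoring was tested on simulated peaks over 1888 genes, where 200 of 200 placed peaks were found and 0 genes differed from direct counting. Calculations used pandas 2.3.3, numpy 2.4.6 and scipy 1.17.1 in Python 3.11.15, and plots used matplotlib 3.10.9.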

Additional observations from a re-analysis of the deposited data

How the results depend on the processing

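The list carries positions and no depth, so depth limits cannot be stated, and a gene without a peak may be open below the authors' threshold. No paired analysis was possible because no value belongs to a library, and leaving out a replicate was not possible for the same reason. Windows of 250 and 2000 bp gave 32 and 37 open collagen genes in place of 33 (76.2% and 88.1%, backgrounds 70.2% and 81.3%). An overlap of 200 bp gave 32 (76.2%, background 70.8%). Peaks wider than the median of 578 bp gave 31 (73.8%, background 68.2%). Col12a1 was lost in 3 of these settings and Col22a1 with wide peaks, and Col6a1, Col6a4, Col6a5 and Col28a1 were gained at 2000 bp. Counting start sites, or each type 4 pair with a shared peak once, gave 75.8% and 77.5% (backgrounds 72.4% and 72.8%). Both settings were chosen after seeing the data. Against 72.8% of all genes, the background of genes of 20 to 200 kb was 82.4%, which turns the order of family and background.

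With windows of 2000 bp, the remaining types rose from 72.4% to 86.2% (background 81.3%), so that they stood above the background and no longer just below it, and the enzymes and chaperones from 85% to 95%. With wide peaks alone, body density was 2.54 midpoints per 100 kb over the family (background 5.52) and 2.38 in the remaining types. The background density was 9.95 in genes of 20 to 200 kb. Without 2 kb at both ends the family's density was 4.13 (background 7.59). The median distance to the nearest peak was 0 kb in every setting tried. In collagen genes of 20 to 50 kb the density was 8.77 (background 11.4), and type 6 rose from 33.3% to 83.3% with windows of 2000 bp, both added after seeing the data. Of 72 alternative values, 64 stayed within the 95% interval of the reported value. Several of these intervals are wide because the groups are small, such as 51.0 to 100% for the 4 type 4 genes. Staying within them is therefore a weak sign of stability. Ratios of 0.5, 0.75 and 0.4 in place of 0.6 were chosen after seeing the data. They gave peaks at 15 of 15, 6 of 6 and 19 of 20 sites at or above the ratio. Below it, 12 of 21, 21 of 30 and 8 of 16 sites had a peak. The share over all start sites was not computed at these ratios. At 0.6 it was 99.2% at or above the ratio and 44.5% below.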
